A study of Homo sapiens with 18 samples.

Results

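The genes described here encode the subunits of voltage-gated calcium channels and voltage-gated sodium channels, and they were taken by gene symbol, after earlier results of these data were known. They make up 40 of the 57133 genes in the count table. There were 10 genes of the pore-forming CaV α1 subunits (CACNA1A to CACNA1S), 4 of the α2δ subunits (CACNA2D1 to CACNA2D4), 4 of the cytoplasmic CaV β subunits (CACNB1 to CACNB4) and 8 of the γ family (CACNG1 to CACNG8). The remaining members were 10 genes of the pore-forming NaV α subunits and 4 of the NaV β subunits.

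RNA was sequenced from PGP1 cells, a human induced pluripotent stem cell line maintained in mTeSR1 medium on Matrigel. The comparison covered 3 groups of 2 libraries, namely WT cells and the PCGF6-KO clones KO1 and KO2, in which CRISPR-Cas9 cut out part of the first exon of PCGF6 on both alleles. PCGF6 is a subunit of the Polycomb repressive complex PRC1.6, and the comparison asks how RNA levels change without it. Each knockout group is a single clone, so what the missing gene does and what else sets a clone apart cannot be told apart within it, and the labels do not say whether the 2 libraries of a group came from separate cultures, so that the p-values measure only the spread between these libraries.

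Voltage-gated calcium and sodium channels open when the membrane depolarizes and let calcium or sodium ions into the cell. The α1 or α subunit forms the pore and senses the voltage, while the α2δ, β and γ subunits set how many channels reach the membrane and how they gate. CaV1 channels carry long-lasting (L-type) currents in muscle and neurons, CaV2 channels trigger transmitter release at synapses, and CaV3 channels carry transient (T-type) currents at low voltages. NaV channels start the action potential in neurons and muscle. Several γ proteins also serve as TARPs, which carry AMPA-type glutamate receptors to the membrane and slow their closing.

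Promoter windows of RefSeq on GRCh38.p14, from 250 bases before to 50 bases after a transcript start, were matched by symbol and covered 26 of the 40 members with 40 windows. A few of them are shown 5′ to 3′ on the strand of the gene, because CACNA1A and SCN1A are among the members with the largest decreases, CACNA2D1 was higher in both clones, and CACNA1I differed between the clones. Capitals mark the searched motifs, which were the E-box CACGTG, the E2F6 motif GCGGGAA, and the parts CAGCACC and GGACAGC of the RE1 element bound by the silencer REST, each on both strands, and no window of a member held more than 1 match. The windows lie at chr19:13506430-13506729 for CACNA1A, chr7:82443907-82444206 for CACNA2D1 and chr2:166127971-166128270 for SCN1A, all on the reverse strand, and at chr22:39570503-39570802 on the forward strand for CACNA1I.
CACNA1A: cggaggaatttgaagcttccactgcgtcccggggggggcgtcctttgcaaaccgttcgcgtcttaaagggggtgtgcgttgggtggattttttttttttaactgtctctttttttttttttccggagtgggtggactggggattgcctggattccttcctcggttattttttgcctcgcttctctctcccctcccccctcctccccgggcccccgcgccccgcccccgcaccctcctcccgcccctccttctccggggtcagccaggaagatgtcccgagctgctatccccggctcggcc
CACNA2D1: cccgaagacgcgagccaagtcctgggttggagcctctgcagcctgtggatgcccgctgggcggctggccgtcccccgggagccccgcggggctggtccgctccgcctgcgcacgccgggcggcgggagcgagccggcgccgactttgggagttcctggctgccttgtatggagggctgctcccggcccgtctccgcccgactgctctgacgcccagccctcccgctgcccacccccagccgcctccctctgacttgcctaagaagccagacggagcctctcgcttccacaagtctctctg
SCN1A: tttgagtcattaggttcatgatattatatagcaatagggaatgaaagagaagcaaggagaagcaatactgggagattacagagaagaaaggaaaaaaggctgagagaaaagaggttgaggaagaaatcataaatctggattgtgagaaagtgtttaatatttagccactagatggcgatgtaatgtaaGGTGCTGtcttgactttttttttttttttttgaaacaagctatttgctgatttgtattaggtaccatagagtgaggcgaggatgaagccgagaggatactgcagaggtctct
CACNA1I: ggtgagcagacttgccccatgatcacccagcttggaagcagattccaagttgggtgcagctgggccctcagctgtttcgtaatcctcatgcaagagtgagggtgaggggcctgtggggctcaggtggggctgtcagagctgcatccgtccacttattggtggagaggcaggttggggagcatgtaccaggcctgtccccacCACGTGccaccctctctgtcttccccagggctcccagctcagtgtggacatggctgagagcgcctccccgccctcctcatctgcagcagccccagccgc

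Each motif stood in few of the member windows, as in few of all windows, and these counts are too small to set the members apart. CACNA1H, CACNG4, CACNG7 and CACNG8 were among the members without a window. The E-box was found in 2 of the 40 windows, in CACNA1B 45 bases and in CACNA1I 49 bases before the start, and in 7.26% of all 35116 windows of this length. The E2F6 motif stood in 2 windows (CACNB1 and SCN11A) against 6.55% of all, CAGCACC in 3 (CACNG3, SCN11A and SCN1A) against 7.75%, and GGACAGC in 1 (CACNB4) against 6.03%. No motif was found in any window of the other 19 members, which says only that these letters are not in these windows. The SCN1A match lies 62 bases before the start, in a window of 37.0% G and C with 3 CpG, while the CACNA2D1 window held 72.3% and 29 CpG and the CACNA1A window 60.7% and 21 CpG. Over all windows the median was 58.7% G and C and 14 CpG, and over the member windows it was 62.7% and 18 CpG. The CACNA1A window lies inside the gene as GENCODE 44 draws it (chromosome 19, 13206442 to 13633025, reverse strand), so the table's start is not the outermost start of that annotation. The same holds for the SCN1A window shown (gene at chromosome 2, 165984641 to 166149214, reverse strand). Another SCN1A window, at chr2:166149112-166149411, held no motif and had 46.3% G and C with 2 CpG.

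The libraries held 15877396 to 18918609 counts. PCGF6 itself had 268 and 300 counts in WT, 99 and 103 in KO1 and 187 and 159 in KO2, a log2 fold change of -1.15 (SE 0.27, adjusted p = 0.00914) over the 4 PCGF6-KO libraries, and the RNA that remains was counted over the whole gene. Without either WT library that adjusted p was 0.0511 and 0.0763. The labelled cell type was checked against 7 pluripotency genes, of which TERF1 was called lower and none higher, with summed levels of 7322 to 7678 CPM (counts relative to the TMM-scaled library size) in WT and 5846 to 6049 CPM in the clones. Markers of the primitive streak and mesoderm moved with the genotype, since 6 of the 7 were tested and all 6 were called higher, and their summed level went from 6.47 to 6.51 CPM in WT to 621 to 622 CPM in KO1 and 744 to 755 CPM in KO2. Among 9 neuronal genes, 1 was called higher and 2 lower. Their sum was 121 to 128 CPM in WT and 94.9 to 106 CPM in the clones, while their median log2 fold change in PCGF6-KO was 0.47. Of the cardiomyocyte markers 4 of 6 tested were higher (10.4 to 12.4 CPM summed in WT, 44.5 to 55.0 CPM in the clones), as were 3 of 4 smooth muscle markers (82.0 to 86.1 against 509 to 767 CPM) and 1 of 2 skeletal muscle markers, ACTA1, which raised that sum from between 12.6 and 13.5 to between 618 and 684 CPM, while MYOD1, MYOG and CKM had at most 3 counts in every library. Both neuroendocrine markers tested were lower (39.7 to 40.4 CPM summed in WT, 4.11 to 7.22 CPM in the clones), and the neural progenitor markers SOX1 and HES5 had at most 3 counts throughout. Of 3 tested genes each, 1 was higher in the neural progenitor list (299 to 346 CPM summed in WT, 615 to 729 CPM in the clones), 1 in the glial list (80.2 to 87.1 against 63.0 to 86.0 CPM) and 1 in the endothelial list, where another was lower (153 CPM in both WT libraries, 455 to 496 CPM in the clones). The part of these markers in the channel results was not tested, and in bulk RNA fewer cells of a type and less RNA per cell cannot be told apart.

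The channel genes as a set took a smaller part of the RNA in the clones. Their counts made up 0.0496% to 0.0503% of each WT library, 0.0339% to 0.0345% of KO1 and 0.0293% to 0.0311% of KO2. CACNG7 alone accounted for much of that drop, and without it the shares were 0.0361% to 0.0364%, 0.0297% to 0.0301% and 0.0273% to 0.0289%.

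Of the 40 members, 31 passed the filter on low counts, compared with 30.9% of all genes. A gene was called when the adjusted p was under 0.05 and the log2 fold change over 0.6 in either direction. In PCGF6-KO against WT, 16 of the 31 were called, where 23.6% of the 17672 genes tested were. Higher were 5 members, among them CACNA2D1, CACNA2D3, CACNB3 and CACNG4, or 16.1%, which is near the 14.9% of all genes. Lower were 11 members, among them CACNA1A, CACNA1D, CACNA1H, CACNB1, CACNB4, CACNG7, CACNG8, SCN1A, SCN4B and SCN8A, or 35.5%, while 8.70% of all genes were lower. Without the second WT library 3 members were higher and 7 lower. All 4 PCGF6-KO libraries lay below both WT libraries in 18 members, against 27.6% of all genes, and above them in 6, against 29.5%. The median log2 fold change of the members was -0.43 and that of all genes tested 0.00.

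KO1 against WT gave 16 called members, 5 higher and 11 lower (background 24.8% in either direction, 16.0% higher and 8.80% lower). In KO2 against WT there were 20, of which 5 were higher and 15 lower (background 29.4%, 16.9% and 12.5%). The clones share the same WT libraries, so these counts are not separate evidence. The plot of fold changes by family shows both clones side by side.

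**Figure D1:**
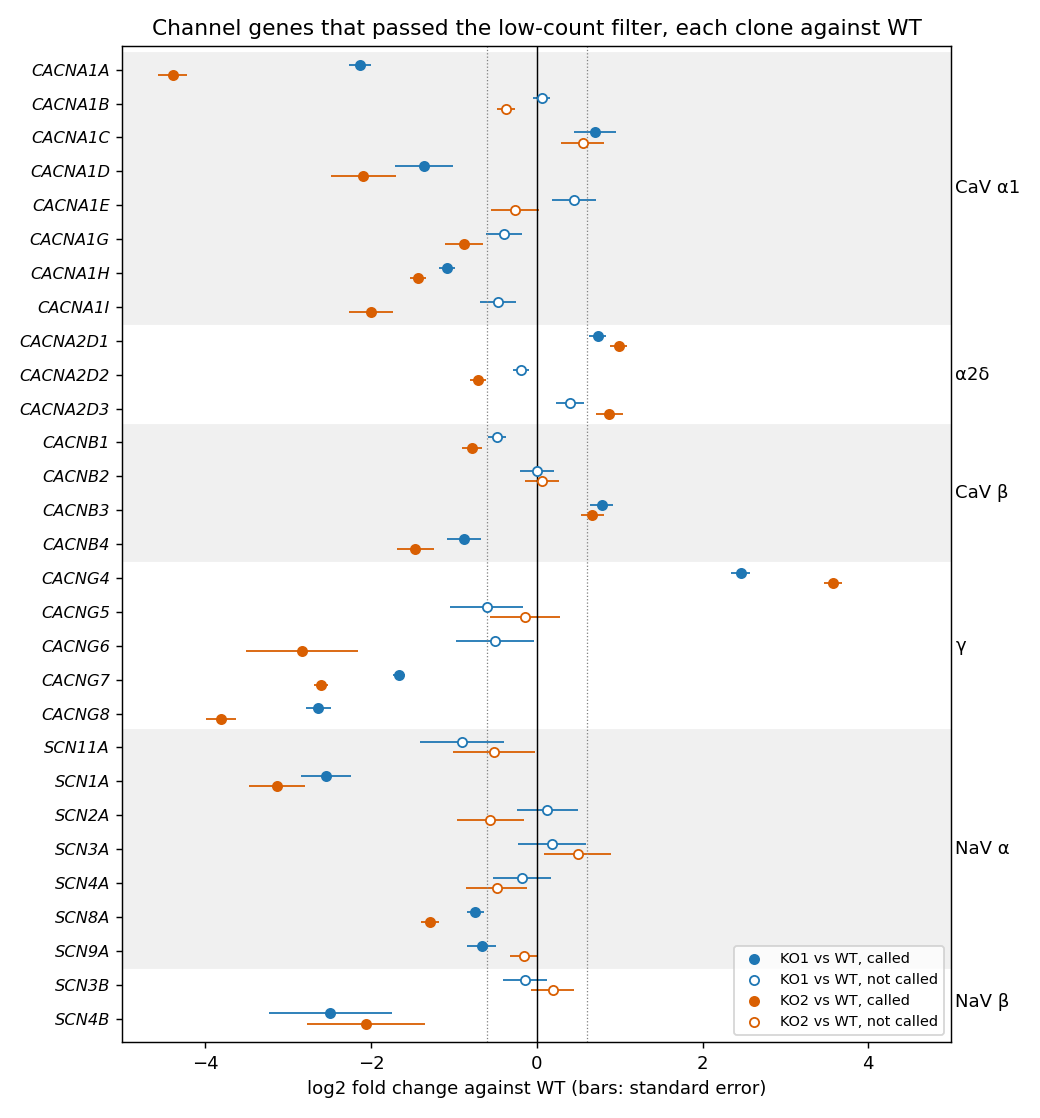
Log2 fold change against WT of 29 channel genes that passed the low-count filter, in KO1 (blue) and KO2 (orange), grouped by subunit family, with standard errors as bars, filled points for called genes and dotted lines at 0.6 in either direction. CACNG4 lies farthest to the right in both clones, at 2.46 and 3.57, and CACNA1A farthest to the left in KO2, at -4.40.

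The pore-forming calcium channel genes fell in part, and the fall was steeper in KO2. CACNA1A, CACNA1D and CACNA1H were called lower in both clones, CACNA1G and CACNA1I in KO2, and none of the family was called higher over all PCGF6-KO libraries. Their summed level per kilobase of exon was 9.83 ± 0.145 RPKM (SD, n = 2) in WT, 6.34 ± 0.140 in KO1 and 4.56 ± 0.511 in KO2. The background of these genes is broad, as CACNA1A serves in synapses, CACNA1C in heart and smooth muscle, and CACNA1H in neurons and endocrine cells.

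CACNA1A encodes CaV2.1, the P/Q-type channel of nerve terminals. It had 450 and 407 counts in WT, 122 and 99 in KO1, and 22 and 20 in KO2. The 3 groups did not overlap and the order WT, KO1, KO2 held in every library. That made CACNA1A 4.39-fold lower in KO1 (log2 fold change -2.13, SE 0.13, adjusted p = 4.13e-13) and 21.0-fold lower in KO2 (-4.40, SE 0.18, adjusted p = 4.10e-17), and the log2 fold change over both clones was -2.84 (adjusted p = 0.00252). Its deposited exon length of 43159 bases was the longest of the members, so its level per kilobase, 0.603 ± 0.0532 RPKM (SD, n = 2) in WT, is small beside its counts. The other CaV2 genes were called in no comparison. CACNA1B, the N-type channel, gave 365 and 376 counts in WT, 459 and 414 in KO1, and 337 and 258 in KO2, with a log2 fold change of -0.14 (SE 0.16) over both clones. Its KO2 level was lower than WT (-0.37, adjusted p = 0.00478) and than KO1 (-0.43, adjusted p = 0.00396) by less than the threshold of 0.6. CACNA1E, the R-type channel, was not called either, at 0.45 (SE 0.26) in KO1 and -0.26 (SE 0.29) in KO2. The share of CACNA1B in the summed CaV2 level per kilobase was 75.0% to 77.3% in WT and 93.3% to 93.9% in KO2.

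Of the T-type genes, CACNA1H was by far the most abundant, and it was the largest part of all CaV α1 RNA per kilobase. The counts of CACNA1H were 807 and 799 in WT, 428 and 427 in KO1, and 353 and 266 in KO2. Every PCGF6-KO library was below both WT libraries, by 2.12-fold in KO1 (adjusted p = 3.68e-10) and 2.70-fold in KO2 (adjusted p = 2.51e-12). CACNA1I went from 69 and 78 counts in WT to 66 and 54 in KO1 and 19 and 19 in KO2. Only the contrast of KO2 with WT passed the test for it among those against WT (3.99-fold lower, adjusted p = 5.10e-07), whereas KO1 gave a log2 fold change of -0.47 (SE 0.22, adjusted p = 0.0783). CACNA1G, the remaining gene of the class, had 66 and 71 counts in WT, 64 and 54 in KO1, and 44 and 33 in KO2, and was 1.84-fold lower in KO2 (adjusted p = 0.00237). DESeq2 put that difference at an adjusted p of 0.0510. The summed T-type level was 6.50 ± 0.0948 RPKM (SD, n = 2) in WT, 3.29 ± 0.0317 in KO1 and 2.43 ± 0.255 in KO2, or 66.2% of CaV α1 RNA in both WT libraries and 50.7% to 53.5% in the clones.

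The L-type genes were low and moved in different directions. CACNA1D, a channel of neurons, endocrine cells and pacemaker tissue, had 36 and 51 counts in WT, 20 and 18 in KO1, and 16 and 5 in KO2. It was 2.58-fold lower in KO1 (adjusted p = 0.00222) and 4.27-fold lower in KO2 (adjusted p = 6.77e-05). Without the second WT library, however, the log2 fold change over both clones was -1.43 with an adjusted p of 0.102, and that of KO1 -1.11 with 0.0535, and DESeq2 gave KO1 an adjusted p of 0.0530. CACNA1C, the main L-type channel of heart and smooth muscle, gave 38 and 34 counts in WT, 76 and 57 in KO1, and 68 and 42 in KO2. All PCGF6-KO libraries lay above WT, but the difference passed the test in KO1 alone (log2 fold change 0.70, SE 0.25, adjusted p = 0.0251) and not in KO2 (0.55, SE 0.26, adjusted p = 0.0809). That call was lost with DESeq2 (adjusted p = 0.192), without the second WT library (adjusted p = 0.129) and without the first KO1 library (log2 fold change 0.52, adjusted p = 0.188), whereas KO2 passed without its second library (0.78, adjusted p = 0.0270). CACNA1F of the retina (4 to 12 counts) and CACNA1S of skeletal muscle (1 to 11 counts) did not pass the filter. Reads of CACNA1D may be shared with CHDH and those of CACNA1H with TPSG1, whose exons overlap them on the other strand, since the strand setting of the counting is not given.

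**Figure D2:**
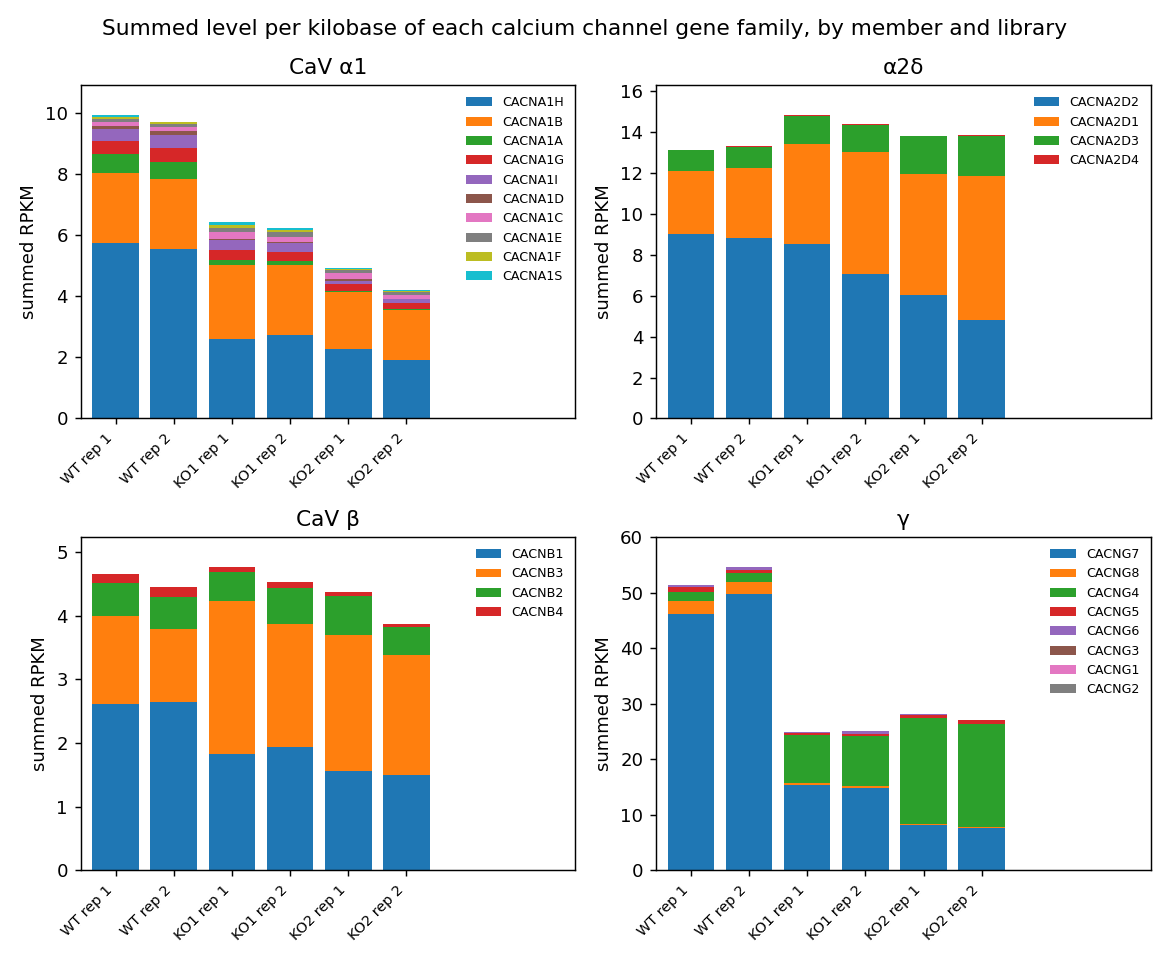
Summed level per kilobase of exon (RPKM, vertical axes) of the 4 calcium channel subunit families in the 6 libraries, with each bar divided by gene. The γ bars of the clones reach about the same height in KO1 and KO2 but are made mostly of CACNG7 in KO1 (59.1% to 61.7%) and mostly of CACNG4 in KO2 (67.8% to 68.5%).

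In the α2δ family CACNA2D1 was called higher in both clones and CACNA2D2 lower in KO2 alone, with little change in the sum. The α2δ proteins are anchored outside the membrane, raise the number of channels at the surface and bind gabapentin in the case of CACNA2D1 and CACNA2D2. The summed level was 13.2 ± 0.127 RPKM (SD, n = 2) in WT, 14.6 ± 0.292 in KO1 and 13.8 ± 0.0197 in KO2. CACNA2D1 had 450 and 516 counts in WT, 838 and 976 in KO1, and 963 and 1015 in KO2. It was 1.66-fold higher in KO1 (adjusted p = 1.76e-06) and 1.98-fold higher in KO2 (adjusted p = 8.79e-09), and every PCGF6-KO library exceeded both WT libraries. Leaving out the second KO1 library brought the KO1 log2 fold change to 0.58, just under the threshold of 0.6.

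CACNA2D2 gave 926 and 930 counts in WT, 1030 and 810 in KO1, and 693 and 488 in KO2. It was lower in KO2 (1.64-fold, adjusted p = 1.59e-06), was not called in KO1 (log2 fold change -0.19, SE 0.10), and fell short of the threshold in KO2 without the second KO2 library (-0.56). CACNA2D3 was counted 79 and 80 times in WT, 124 and 113 in KO1, and 155 and 147 in KO2. Over both clones it was 1.57-fold higher (adjusted p = 0.0351), and KO2 alone was 1.83-fold higher (adjusted p = 6.32e-05). The call over both clones did not hold without either WT library (adjusted p = 0.161 and 0.166), without either KO2 library (0.0693 and 0.0665) or with the replicate number as a block (0.0635). Per kilobase, CACNA2D2 was 66.3% to 68.6% of the family in WT and 34.8% to 43.8% in KO2, while CACNA2D1 went from 23.4% to 25.8% up to 42.7% to 50.8%. CACNA2D4 had 1 to 7 counts and was not tested.

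A similar exchange was seen between CaV β genes. The β subunit binds the linker between the repeats of α1 and brings the channel to the membrane. CACNB1, the form of skeletal muscle and brain, and CACNB4, a neuronal form, were lower, CACNB3 was higher, and the sum was 4.56 ± 0.146 RPKM (SD, n = 2) in WT, 4.65 ± 0.165 in KO1 and 4.11 ± 0.353 in KO2. For CACNB1 the counts were 301 and 313 in WT, 248 and 249 in KO1, and 200 and 170 in KO2. It was 1.54-fold lower over both clones (log2 fold change -0.62, SE 0.13, adjusted p = 0.00529), close to the threshold of 0.6, and it was not called without the second WT library (adjusted p = 0.0578) or without either KO2 library (-0.57 and -0.56). In KO1 alone it stood at -0.48 (SE 0.11, adjusted p = 0.000952), below the size required. In KO2 alone CACNB1 was called lower (-0.78, SE 0.12, adjusted p = 3.20e-06), and there it ran from -0.83 to -0.75 over the alternatives.

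CACNB3 showed the opposite, with 162 and 136 counts in WT, 329 and 252 in KO1, and 277 and 216 in KO2. It was 1.72-fold higher in KO1 (adjusted p = 4.44e-05) and 1.59-fold higher in KO2 (adjusted p = 0.000290). Without the second WT library the log2 fold change over both clones was 0.59 (adjusted p = 0.0750) and that of KO2 0.53, and without the first KO2 library that of KO2 was 0.58. CACNB4 counts were 91 and 101 in WT, 55 and 63 in KO1, and 42 and 30 in KO2. These gave a 1.84-fold lower level in KO1 (adjusted p = 0.000916) and a 2.76-fold lower level in KO2 (adjusted p = 3.95e-06), and over both clones the adjusted p of 0.00624 became 0.0638 without the second WT library. CACNB2, a cardiac form, had 63 to 99 counts and log2 fold changes of 0.01 (SE 0.20) in KO1, where upper-quartile scaling turned the sign (-0.0154), and 0.06 (SE 0.21) in KO2, where leaving out the first KO2 library did (-0.20). By share of the family per kilobase, CACNB1 was ahead of CACNB3 in WT (55.9% to 59.4% against 25.6% to 29.9%) and behind it in each PCGF6-KO library (35.6% to 42.6% against 42.8% to 50.5%).

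The γ family held the largest increase in both clones and some of the largest decreases. CACNG7, a TARP of type II, had the highest level per kilobase of the 40 genes in WT, 47.9 ± 2.48 RPKM (SD, n = 2), and was much lower in the clones, and so was its neighbour CACNG8, a TARP of hippocampal neurons, while CACNG4, another TARP, was much higher. CACNG7 had 2106 and 2322 counts in WT, 825 and 755 in KO1, and 415 and 341 in KO2. The groups were far apart, at 134 ± 6.94, 42.3 ± 1.14 and 22.1 ± 1.16 CPM (SD, n = 2). CACNG7 was 3.17-fold lower in KO1 (adjusted p = 4.94e-16) and 6.07-fold lower in KO2 (adjusted p = 1.40e-19).

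CACNG8 was counted 339 and 327 times in WT, 58 and 63 in KO1, and 27 and 22 in KO2. Its 6.21-fold lower level in KO1 (adjusted p = 1.06e-13) and 14.0-fold lower level in KO2 (adjusted p = 1.13e-15) were the second largest decreases of any member in KO2 and the largest in KO1. The other gene of that cluster, CACNG6, a γ subunit of skeletal muscle, was low, with 14 and 15 counts in WT, 8 and 15 in KO1, and 2 and 2 in KO2. Its ratio of summed counts, scaled by library size, was 7.52-fold lower in KO2 than in WT, with a 95% counting interval from 2.64 to 29.4, and the fit gave an adjusted p of 0.000946. KO1 did not pass (log2 fold change -0.50, SE 0.47, adjusted p = 0.402).

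CACNG4 went the other way, from 88 and 88 counts in WT to 552 and 546 in KO1 and 1169 and 1009 in KO2. It was 5.51-fold higher in KO1 (log2 fold change 2.46, SE 0.12, adjusted p = 1.35e-15) and 11.9-fold higher in KO2 (3.57, SE 0.11, adjusted p = 1.04e-19), the largest increase of any member in both. Its neighbour CACNG5 was not called, with 11 to 17 counts in all libraries, and CACNG1, the γ subunit of the skeletal muscle channel, had at most 1. CACNG2, also known as stargazin, had 0 counts in every library and CACNG3 at most 1. The γ sum was 53.0 ± 2.27 RPKM (SD, n = 2) in WT, 25.0 ± 0.102 in KO1 and 27.6 ± 0.690 in KO2. CACNG7 fell from 89.8% to 91.0% of it in WT to 59.1% to 61.7% in KO1 and 28.0% to 29.1% in KO2, and CACNG4 rose from 2.86% to 3.11% through 34.2% to 35.4% to 67.8% to 68.5%.

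The γ genes lie in clusters on GRCh38 by GENCODE 44. CACNG7, CACNG8 and CACNG6 follow each other on the forward strand of chromosome 19 (53909278 to 54012666), and CACNG5, CACNG4 and CACNG1 on the forward strand of chromosome 17 (66835117 to 67056797). Within the former cluster the members shared a direction in KO2, and within the latter CACNG4 was called while CACNG5 was not. Around CACNG7, 12 other genes within 250 kb were tested, with 2 calls upward and 1 downward in PCGF6-KO, and around CACNG4 the counts were 2 tested and 0 called. The exon of the microRNA gene MIR935 overlaps CACNG8, and ENSG00000265664 overlaps CACNG4 on the other strand.

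**Figure D3:**
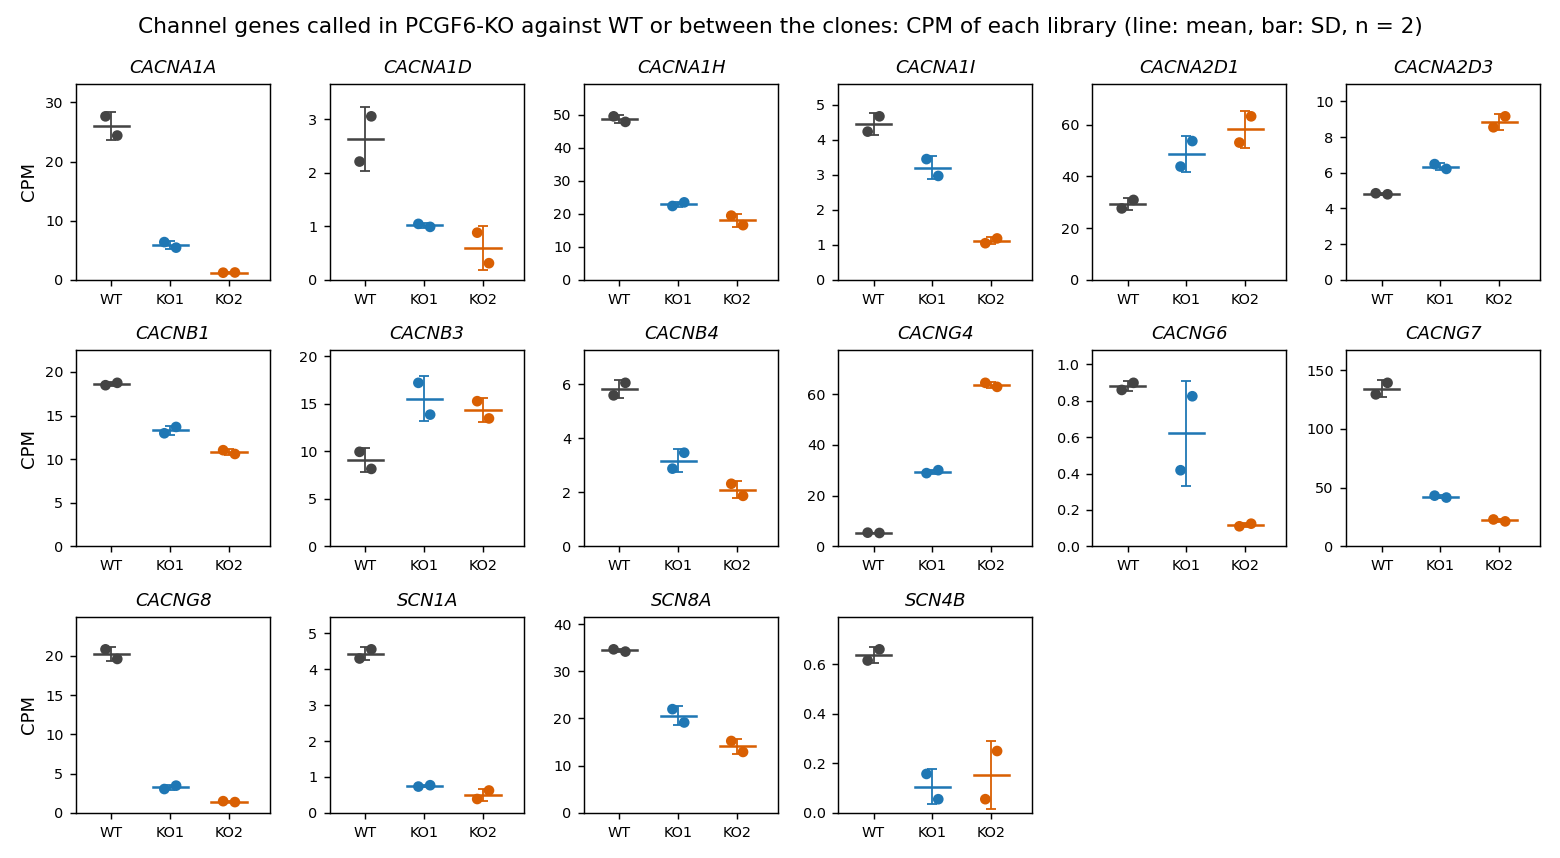
CPM in each library (points) of 16 channel genes called in PCGF6-KO against WT or between the clones, with the mean as a line and the SD as a bar (n = 2), each panel starting at 0. CACNA1A, CACNG7 and CACNG8 step down from WT through KO1 to KO2, and CACNG4 steps up from 5.27 to 5.40 CPM in WT to 62.9 to 64.5 CPM in KO2.

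Several NaV α genes were lower in the clones. SCN8A, a channel of the axon's initial segment, was lower in both clones, and SCN1A, the channel of inhibitory interneurons, fell further. SCN1A had 70 and 76 counts in WT, 14 and 14 in KO1, and 7 and 10 in KO2. All PCGF6-KO libraries were far below WT, by 5.85-fold in KO1 (adjusted p = 1.01e-07) and 8.78-fold in KO2 (adjusted p = 1.26e-08).

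SCN8A gave 564 and 570 counts in WT, 420 and 348 in KO1, and 276 and 207 in KO2. Here too no PCGF6-KO library reached WT, with 1.67-fold lower levels in KO1 (adjusted p = 1.12e-06) and 2.44-fold lower levels in KO2 (adjusted p = 1.36e-10). SCN9A, the channel of pain-sensing neurons, was an exception, since its counts of 108 and 114 in WT and 79 and 79 in KO1 differed by 1.59-fold (adjusted p = 0.00254), whereas KO2, with 106 and 100, was not called (log2 fold change -0.16, SE 0.17). SCN2A, SCN3A, SCN4A and SCN11A had 7 to 32 counts and were called in no comparison, with log2 fold changes over both clones from -0.70 (SCN11A) to 0.34 (SCN3A), and SCN7A (1 to 10 counts) and SCN10A (at most 1) were not tested.

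The NaV α genes SCN3A, SCN2A, SCN1A, SCN9A and SCN7A lie together on chromosome 2 (165087526 to 166611482). Their log2 fold changes in KO2 were 0.49, -0.56, -3.13 and -0.16 for SCN3A, SCN2A, SCN1A and SCN9A, so that SCN1A alone was called there. The antisense gene SCN1A-AS1 overlaps exons of SCN1A and SCN9A, and ENSG00000236283 those of SCN2A and SCN3A, and reads in such overlaps may be shared or left uncounted.

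NaV β genes were few in counts. These single-pass proteins attach to the α subunit and act in gating and in cell adhesion. SCN4B was listed with 10 and 11 counts in WT, 3 and 1 in KO1, and 1 and 4 in KO2, and the ratio of summed counts, scaled by library size, was 5.94-fold lower in KO1 than in WT (95% counting interval 2.0 to 23.8). Its call in PCGF6-KO (adjusted p = 0.0152) was lost with DESeq2 (0.0825) and without either WT library (0.0922 and 0.111). The KO1 call was lost with DESeq2 (0.129) and without the second WT or the second KO1 library (0.0572 and 0.0988), and the KO2 call with DESeq2 (0.217), without either WT library (0.0730 and 0.0983) and without the first KO2 library (0.261). SCN3B had 32 to 54 counts and was not called (log2 fold change 0.03, SE 0.26, over both clones), and SCN2B, with 1 to 9 counts, was not tested.

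Comparing the clones directly asks whether the channel genes differ between cells with the same targeted gene. The paper gives the deletions of its knockout clones as different in length, so the allele differs here as well. Of the 31 members tested, 6 were called in KO2 against KO1, where 7.87% of all genes were. CACNG4 was the only member called higher in KO2 (background 3.73%), and CACNA1A, CACNA1I, CACNG6, CACNG7 and CACNG8 were called lower (background 4.14%). The difference was largest for CACNA1A among the abundant members, at 4.80-fold (log2 difference -2.26, SE 0.22, adjusted p = 2.42e-08). CACNA1I was 2.88-fold lower in KO2 than in KO1 (adjusted p = 0.000200), CACNG8 2.26-fold (adjusted p = 0.000679) and CACNG7 1.92-fold (adjusted p = 7.39e-09), and CACNG4 was 2.16-fold higher (adjusted p = 4.24e-10). For CACNG6 the ratio was 5.27-fold lower with a 95% counting interval from 1.80 to 21.0, and its adjusted p of 0.0204 became 0.232 without the second KO1 library and 0.145 and 0.106 without either KO2 library.

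All 8 CaV α1 genes tested had a lower fitted level in KO2 than in KO1, with log2 differences from -2.26 to -0.15, though that of CACNA1C turned to 0.03 without the first KO1 library and to 0.07 without the second KO2 library. Both KO2 libraries lay below both KO1 libraries in 18 of the 31 members, against 26.6% of all genes, and above them in 8, against 28.9%. The member median of the clone difference was -0.31 and that of all genes 0.01. CACNA2D2 and SCN8A had differences of -0.52 and -0.54, short of the threshold, and passed it without the second KO1 library (-0.65 and -0.64) and without the first KO2 library (-0.69 and -0.67). CACNA1E was past the threshold of size at -0.71 but not called (adjusted p = 0.0682). With a minimum of 10 counts in every library it was called (-0.72, adjusted p = 0.0467). The residual PCGF6 RNA was higher in KO2 than in KO1 (log2 difference 0.90), and the summed streak and mesoderm markers were higher in KO2 as well, and the part of either in the clone difference was not tested. Chromosome 19, which holds CACNA1A, CACNG6, CACNG7 and CACNG8, had the lowest median clone difference of the chromosomes, -0.08 over 1084 genes tested. Of the 10 other genes tested within 250 kb of CACNA1A, none had a log2 difference below -0.6 in KO2 against KO1, and LYL1 was at 0.75. In PCGF6-KO against WT none of these 10 was called lower and 1 was called higher.

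Proteins that work with these channels, and the separate sodium leak channel NALCN with its own partners, were read from a list of 38 genes in the table, of which 33 were tested. Among them 6 passed as higher and 10 as lower in PCGF6-KO, where 14.9% of all genes tested were higher and 8.70% lower. The median over the 33 was -0.10 on the log2 scale. The ryanodine receptors, which release calcium from internal stores, did not move together. RYR1, the form of skeletal muscle, went from 1390 and 1441 counts in WT to 537 and 521 in KO1 and 441 and 391 in KO2 (log2 fold change -1.70, SE 0.09, adjusted p = 1.60e-06), while RYR2 of the heart rose (0.88, adjusted p = 0.000805) and RYR3 had 131 and 153 counts in WT, 353 and 375 in KO1, and 692 and 737 in KO2 (1.83, adjusted p = 0.00560).

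CAMK2D, a calcium-dependent kinase that acts on CaV1 and NaV channels in the heart, had the largest increase of the list, from 116 and 153 counts in WT to between 981 and 1087 in the clones (log2 fold change 2.82, SE 0.12, adjusted p = 6.65e-07). NALCN, the sodium leak channel, had the largest decrease, from 23 and 38 counts to between 1 and 6 (-3.30, SE 0.49, adjusted p = 0.000808), and its partners UNC79 (-0.87) and FAM155A (-1.0) were lower as well. Of the adaptor family STAC, STAC was higher (1.01) and STAC2 lower (-2.98), and of the FGF proteins that bind NaV tails, FGF12 (0.94) and FGF13 (0.91) were higher and FGF11 (-1.28) lower. Also lower were SPTBN4 (-1.39), a spectrin of the axon's initial segment, the RGK protein REM2 (-1.13), which inhibits calcium channels, and RIMS2 (-0.75) of the release zone. REST, the silencer of many neuronal channel genes, had 1591 and 1534 counts in WT, 4370 and 4579 in KO1, and 4075 and 4034 in KO2, a log2 fold change of 1.33 (SE 0.08, adjusted p = 3.01e-06), and of the 10 genes of REST and its cofactors it was the only member called.

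**Figure D4:**
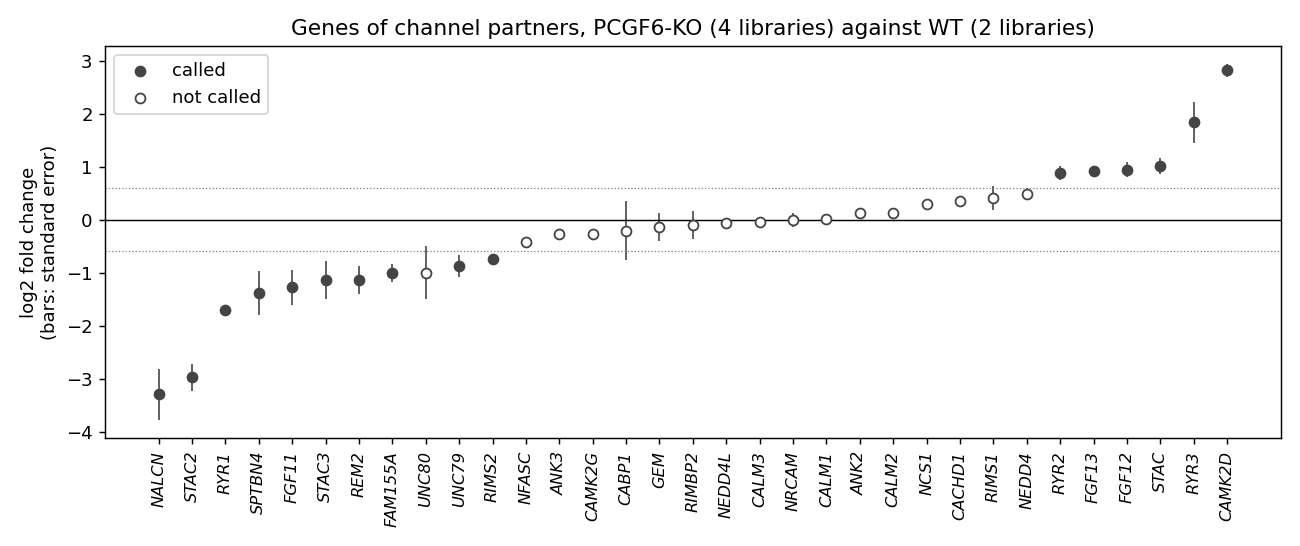
Log2 fold change in PCGF6-KO (4 libraries) against WT (2 libraries) of the 33 tested genes of the partner list, sorted by value, with standard errors as bars, filled points for called genes and dotted lines at 0.6 in either direction. The list also holds the separate sodium leak channel NALCN and its own partners. NALCN stands at -3.30 on the left and CAMK2D at 2.82 on the right, and the 17 open points mark genes not called.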

How the data were processed

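RNA-seq of WT (2 libraries), KO1 (2) and KO2 (2) was used. Per the submitters' processing notes, the authors trimmed reads with Trim Galore (0.6.2), aligned them to GRCh38 with HISAT2 (2.1.0) and counted them with featureCounts, and the deposited values are raw counts per gene. Which annotation release, which strand setting and what rule for multi-mapped reads were used is not given in the sources used here. The table held 0 columns of other samples, and the ChIP-seq was not analysed here. Counts of near-identical paralogs were taken as deposited.

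Genes with low counts were removed with filterByExpr, libraries were scaled by TMM, and edgeR 4.0.16 (R 4.3.3, limma 3.58.1) fitted glmQLFit and glmQLFTest, with the 4 PCGF6-KO libraries against the 2 WT libraries in 1 fit and the 3 groups in another. The former treats the 4 libraries of 2 clones as replicates although they are not independent, and differences between the clones enter its spread. They do not enter the spread of the fit of 3 groups, so p-values of the 2 fits cannot be compared directly. P-values were adjusted by Benjamini-Hochberg over all 17672 genes tested, and all tests were two-sided. SE is the log2 fold change divided by the root of F. CPM were divided by the deposited exon length in kilobases to give RPKM. Counting intervals are exact at 95% and, like the libraries' depth, cover counting error only. On simulated counts with 200 changed genes, edgeR recovered 200 in PCGF6-KO against WT with 3 false calls among 17272 genes. DESeq2 (1.42.0) recovered 197 there with 0 false calls among 17672. For edgeR the false calls were 2 in KO1 against WT, 9 in KO2 against WT and 3 in KO2 against KO1. The share of false calls in the real libraries was not tested. Recovery covers only the changes put into the simulated counts. How many real changes near the threshold, in genes with few counts or with unlike clones would be missed was not tested. Replicates of a group differed beyond counting error, with a chi-square per degree of freedom of 2.50 in WT, 4.91 in KO1 and 3.41 in KO2. The alternatives were DESeq2, RLE and upper-quartile scaling, no filter or a minimum of 10 counts in every library, thresholds other than these, glmTreat, a replicate block, the clones' mean, fits with only the groups compared, and leaving out each library.

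The members and lists were chosen with earlier results of these data known. Counts per library are given for members called in any comparison or with a mean of at least 5 CPM. Other members are given by ranges, and partner genes only where both clones were called in 1 direction. Some values of the set are not reported here, and figures leave them out.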

Additional observations from a re-analysis of the deposited data

Results flagged for a closer look

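In 6 channel genes the level differed between the 2 clones by the fit's own test of KO2 against KO1. The log2 difference, KO2 minus KO1, was -2.26 for CACNA1A, -1.52 for CACNA1I, -2.33 for CACNG6, -0.94 for CACNG7, -1.18 for CACNG8 and 1.11 for CACNG4. Over the alternatives that gave a value, the differences ran from -2.37 to -2.14 for CACNA1A, from -1.63 to -1.41 for CACNA1I, from -0.99 to -0.89 for CACNG7, from -1.27 to -1.08 for CACNG8 and from 1.08 to 1.14 for CACNG4, each past the threshold. That of CACNG6 ran from -2.74 to -1.78 and was not called without the second KO1 library (adjusted p = 0.232) or without either KO2 library (0.145 and 0.106), and it had no value by DESeq2 or in a fit of only the groups compared. With glmTreat, 4 of the 6 were called, without CACNG6 and CACNG8. In CACNA1A, CACNG7 and CACNG8 both clones were also called lower than WT, and in CACNG4 both were called higher, so the clones differed in size and not in direction. CACNA1I and CACNG6 were called against WT in KO2 alone. The 4 PCGF6-KO libraries were also checked for single libraries apart from the others, and no channel gene held such a library. Where the clones differ, a check over their 4 libraries can hardly find one, so this says little about library quality.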

How the results depend on the processing

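Scaling by RLE left each channel gene's call and direction as reported, and upper-quartile scaling, which moved the median log2 fold change of all genes to -0.03, turned the sign of uncalled genes only, CACNB2 (-0.0006) and SCN3B (-0.0016) in PCGF6-KO against WT and CACNB2 (-0.0154) in KO1 against WT. Other thresholds changed counts by construction. With the adjusted p alone, 6556 genes rather than 4167 were called in PCGF6-KO and 13 channel genes rather than 6 between the clones, and with glmTreat 2621 genes in PCGF6-KO, 2 channel genes higher there, and 10 channel genes in KO1. Whether replicate numbers pair the samples stayed unclear (deviations correlated by Pearson's r of 0.04, 0.05 and 0.16 and Spearman's rho of 0.12, 0.11 and 0.23 across 15104 genes, which are not independent), and the replicate block gave 3876 genes in PCGF6-KO, with 4 channel genes higher and 11 lower, and changed no call of a channel gene in any comparison but that of CACNA2D3. Where a single library was left out, 3041 to 4251 genes were called in PCGF6-KO, with 3 to 5 channel genes higher and 7 to 13 lower, the lowest of both without the second WT library, 13 to 16 in KO1, 18 to 20 in KO2 and 5 to 7 between the clones. PCGF6 itself stayed between -1.32 and -0.99 and missed the threshold without either WT library (adjusted p = 0.0511 and 0.0763).

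Uncalled genes that changed sign in such fits ran, in PCGF6-KO, from -0.0492 to 0.103 (CACNB2), -0.24 to 0.37 (SCN3B) and -0.60 to 0.46 (SCN2A). In KO1 they ran from -0.16 to 0.16 (CACNB2), -0.30 to 0.76 (SCN2A) and -0.41 to 0.20 (SCN3B), and in KO2 from -0.299 to 0.0165 (CACNG5), -0.0819 to 0.523 (SCN3B), -0.991 to 0.0585 (SCN2A) and -0.20 to 0.27 (CACNB2). Between the clones the ranges were -0.442 to 0.0738 (CACNA1C), -0.21 to 0.27 (CACNB2), -0.258 to 0.0551 (CACNB3) and -0.88 to 1.31 (SCN4B). The mean of the clones added CACNA1C, CACNA1G, CACNA1I and CACNG6 to the calls in PCGF6-KO, with adjusted p from 1.30e-05 to 0.0225. It was taken from the fit of 3 groups, where differences between the clones do not enter the spread. The cause of these changes was not tested. Members with few counts, for which DESeq2 set no adjusted p or a stricter filter left no test, have no value under those settings.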
